A study of Homo sapiens with 9 samples.

Results

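CEACAM1, CEACAM5, CEACAM6 and CEACAM7 were followed across 3 concentrations of 5-aza-deoxycytidine (5-Aza) in HT-29 cells. The genes were chosen by name, as the carcinoembryonic antigen-related cell adhesion molecules named for this account, and every probe set that the array's annotation gives to 1 of them was taken: 12 probe sets of 4 genes, out of 19775 genes with a probe set of their own. HT-29 is an established human colon adenocarcinoma line, and 5-Aza is a cytidine analogue that is built into DNA and traps the DNA methyltransferases. The groups were cultures given 5-Aza at 10 µM, cultures given 5-Aza at 5 µM and cultures given the DMSO vehicle alone (0 µM), with 3 biological replicates and so 3 Affymetrix hgu133plus2.0 arrays in each. All 9 arrays came from the same cell line, so the spread between replicates is that between culture dishes of 1 line.

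The 4 proteins belong to the immunoglobulin superfamily and bind each other and themselves on the surface of epithelial cells. CEACAM5 is the carcinoembryonic antigen (CEA) measured in serum as a tumour marker in colorectal cancer, CEACAM6 is its close relative on epithelium and granulocytes, and CEACAM7 is a product of the upper crypt and surface epithelium of the colon that is commonly reduced in colorectal tumours. These 3 are held in the outer leaflet of the membrane by a glycosylphosphatidylinositol (GPI) anchor. CEACAM1 spans the membrane instead, and its long splice form carries inhibitory tyrosine motifs (ITIMs) that recruit the phosphatases SHP-1 and SHP-2.

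All 4 genes lie on chromosome 19, and their promoters are shown first because 5-Aza acts on CpG methylation and because the 4 sequences resemble each other. Each line gives the 250 bases before the RefSeq start (GRCh38.p14), read 5′ to 3′ on the strand of the gene, with each CpG and each CACGTG in capitals. The windows are chr19:41708376-41708625 on the plus strand for CEACAM5, chr19:41755280-41755529 on the plus strand for CEACAM6, chr19:41688271-41688520 on the minus strand for CEACAM7 and chr19:42528482-42528731 on the minus strand for CEACAM1.
CEACAM5: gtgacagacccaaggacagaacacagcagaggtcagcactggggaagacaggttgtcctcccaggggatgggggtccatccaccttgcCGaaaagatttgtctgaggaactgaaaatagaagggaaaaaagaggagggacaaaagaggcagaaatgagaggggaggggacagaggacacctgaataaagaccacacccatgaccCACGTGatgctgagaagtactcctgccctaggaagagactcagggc
CEACAM6: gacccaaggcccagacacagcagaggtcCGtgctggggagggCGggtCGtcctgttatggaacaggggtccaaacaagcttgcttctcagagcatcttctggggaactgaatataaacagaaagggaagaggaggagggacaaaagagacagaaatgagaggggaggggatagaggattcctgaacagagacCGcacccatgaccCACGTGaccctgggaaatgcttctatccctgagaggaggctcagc
CEACAM7: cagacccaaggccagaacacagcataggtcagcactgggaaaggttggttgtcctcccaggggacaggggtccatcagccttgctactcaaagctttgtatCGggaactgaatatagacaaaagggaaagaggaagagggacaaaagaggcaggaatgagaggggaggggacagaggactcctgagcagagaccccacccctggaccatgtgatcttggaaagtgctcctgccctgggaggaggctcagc
CEACAM1: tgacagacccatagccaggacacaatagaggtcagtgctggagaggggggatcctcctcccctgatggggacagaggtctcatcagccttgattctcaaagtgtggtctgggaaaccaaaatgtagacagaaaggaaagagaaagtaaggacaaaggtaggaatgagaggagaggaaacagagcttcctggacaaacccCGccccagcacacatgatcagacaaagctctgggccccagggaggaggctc

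All 4 windows held fewer CpGs than the median window, though the CEACAM6 count lay between the quartiles. CEACAM6 had 5, CEACAM5 had 2, and CEACAM7 and CEACAM1 had 1 each, where the median over 35116 RefSeq windows of the same length was 11 with quartiles at 3 and 23. As many or fewer CpGs were found in 38.1% of all windows for the CEACAM6 count, 22.9% for the CEACAM5 count and 14.7% for the count that CEACAM7 and CEACAM1 share. No methylation was measured here, so the sequences say nothing of whether these CpGs were methylated in the cells.

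**Figure D1:**
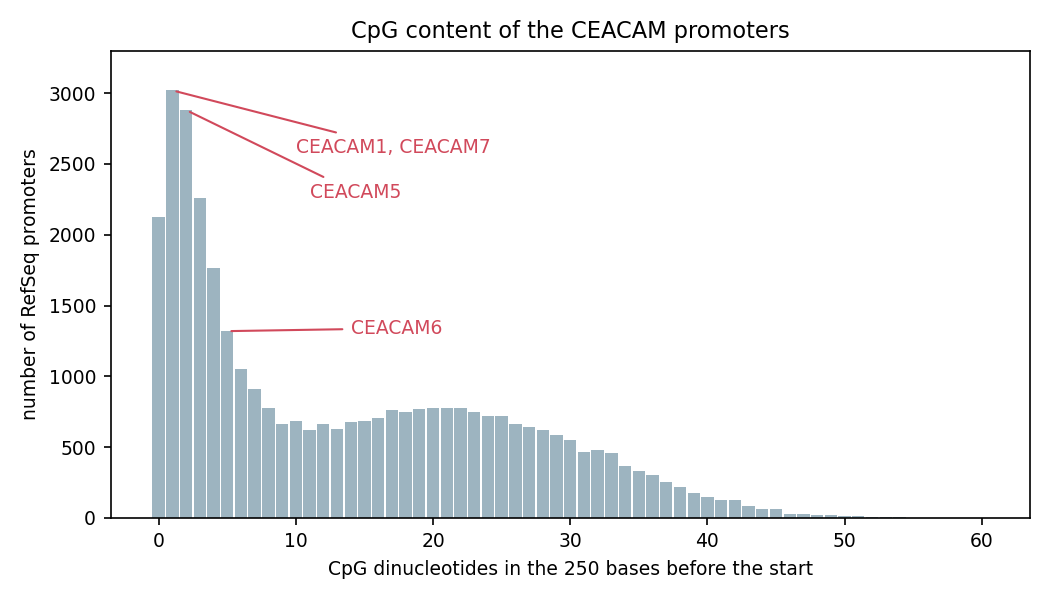
Number of RefSeq promoters (vertical axis) by the number of CpG dinucleotides in the 250 bases before the start (horizontal axis), with the 4 CEACAM genes marked. The members sit at 1, 2 and 5 CpGs, all under the median of 11.

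The aligned windows of CEACAM5 and CEACAM7 were 80.5% identical and those of CEACAM6 and CEACAM7 79.9%, followed by CEACAM5 and CEACAM6 with 74.6%. CEACAM1 was the least like the others, at 71.9% to CEACAM7, 68.2% to CEACAM6 and 66.2% to CEACAM5. A few short motifs, picked with these sequences in view, were searched on both strands. The E-box CACGTG, which the upstream stimulatory factors USF1 and USF2 recognise, began 46 bases before the start of CEACAM5 and 45 bases before that of CEACAM6, and was found in 6.34% of all windows. At the matching place CEACAM7 had CATGTG, 44 bases before the start, and CEACAM1 had CATGTG on the other strand, 41 bases before the start. CATGTG, which shares 5 of its 6 letters with CACGTG, was found in 9.42% of all windows. The GC box GGGCGG was matched in CEACAM6, 211 bases before the start, and in CEACAM1 on the other strand, 52 bases before the start (42.6% of all windows). TATAAA was matched in CEACAM6 alone, 139 bases before the start (10.7% of all windows). The core of the interferon response element (GAAA, any 2 bases, GAAA) was matched in CEACAM1 alone, 116 bases before the start (3.02% of all windows). Each match is a run of letters and not a measured binding site.

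Signals are given as log2 values. The median of an array is called its floor below, and a probe set was tested where every array of 1 or more groups had it at its floor or higher (the floors were 5.07 to 5.52). Of 12 CEACAM probe sets, 9 were tested: 5 of CEACAM1, 2 of CEACAM6 and 1 each of CEACAM5 and CEACAM7. The remaining 3 were dim. The CEACAM7 probe sets 206198_s_at and 211848_s_at were under the floor on all 9 arrays, with signals of 2.56 to 4.83 and 2.38 to 5.38. The second CEACAM5 probe set, 217291_at, gave 5.12, 5.77 and 4.74 at 0 µM, 5.04, 4.11 and 5.52 at 5 µM and 5.10, 4.72 and 3.64 at 10 µM, so it reached the floor on 1 array at 0 µM, 1 array at 5 µM and no array at 10 µM. "Called" below means an adjusted p of at most 0.05 (limma, Benjamini-Hochberg over the 27144 probe sets tested) with a change of more than 2-fold. An adjusted p of at most 0.05 with a smaller fold is described as a change under 2-fold.

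The arrays themselves shifted with dose in ways that touch every value here. The gap between the 3′ and 5′ probe sets of the actin control, which widens when RNA or its copy is shorter, averaged 2.09 ± 0.19 at 0 µM, 2.59 ± 0.10 at 5 µM and 2.98 ± 0.17 at 10 µM (log2, SD, n = 3 each). The 5′ probe set of the 18S control was at 13.45 and 13.60 on 10 µM replicates 2 and 3, where the other 7 arrays lay between 11.77 and 12.56, so results at 10 µM are also given with these 2 arrays left out. The array median averaged 5.15 at 0 µM, 5.41 at 5 µM and 5.42 at 10 µM. Of all probe sets called at 5 µM against 0 µM, 84.4% were higher, against 72% after quantile normalization and 55.4% after setting the array medians equal. The last of these moved the median change of all tested probe sets to -0.21, where it had been 0.06 on the log2 scale. At 10 µM against 0 µM, 77.9% of calls were higher, against 59.7% and 39.4% in the same order of settings, and equal medians gave a median change of -0.20.

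CEACAM5, CEACAM6 and CEACAM7 were higher in 5 µM cultures than in 0 µM cultures, and CEACAM1 was lower. CEACAM5 was 3.19-fold and CEACAM7 3.11-fold higher, both called. CEACAM6 was 1.70-fold to 1.96-fold higher on its 2 probe sets, under 2-fold. CEACAM1 fell to 0.656 of its 0 µM signal on its brightest probe set, also under 2-fold, and its 4 dimmer probe sets did not pass.

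**Figure D2:**
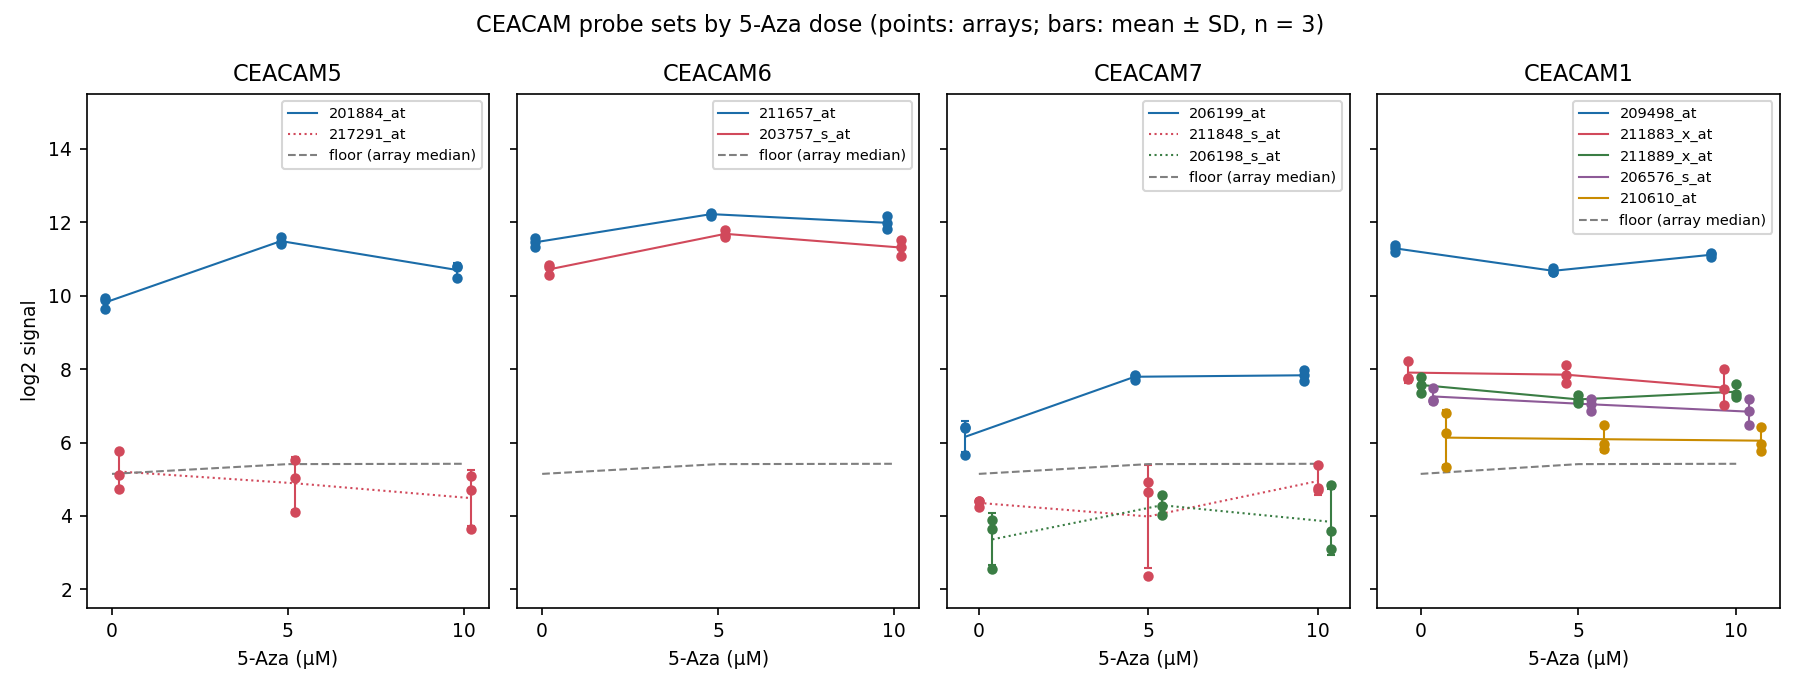
Log2 signal (vertical axis) of the 12 CEACAM probe sets at 0, 5 and 10 µM 5-Aza (horizontal axis), 1 panel a gene, with 1 point an array and the mean ± SD of 3 arrays; dotted lines join probe sets that were not tested, and the dashed line is the mean floor. CEACAM5 peaks at 5 µM (11.48) and stays above its 0 µM mean at 10 µM (10.70, against 9.81), while the bright CEACAM1 probe set dips at 5 µM.

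CEACAM5 (probe set 201884_at) gave 9.63, 9.88 and 9.92 at 0 µM, 11.41, 11.45 and 11.59 at 5 µM and 10.81, 10.79 and 10.49 at 10 µM. No 2 dose groups overlapped, and the 3 doses stood in the order 5, 10 and 0 µM. The difference between 5 and 0 µM was 1.67 ± 0.13 on the log2 scale (SE; limma, adjusted p = 1.03e-04), with a 95% confidence interval of 2.58-fold to 3.94-fold. At 10 µM CEACAM5 was 0.89 ± 0.13 above 0 µM (1.85-fold, under 2-fold; limma, adjusted p = 0.00324). Against 5 µM it was lower at 10 µM, by a log2 difference of -0.79 ± 0.13 (0.580 of the 5 µM signal; limma, adjusted p = 0.0139). This difference, under 2-fold, did not pass when 5 µM replicate 2 (-0.80; limma, adjusted p = 0.0544), 5 µM replicate 3 (-0.74; adjusted p = 0.0675) or 10 µM replicate 3 (-0.68; adjusted p = 0.0521) was left out. It also did not pass with no floor (limma, adjusted p = 0.101) or by the methods' t-test after adjustment (0.0776).

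CEACAM7 (206199_at) gave 6.39, 5.67 and 6.41 at 0 µM, 7.82, 7.85 and 7.70 at 5 µM and 7.85, 7.97 and 7.67 at 10 µM. All 6 treated arrays lay above all 3 vehicle arrays, and the 5 and 10 µM arrays overlapped. The log2 difference was 1.64 ± 0.20 at 5 µM (limma, adjusted p = 8.33e-04) and 1.67 ± 0.20 at 10 µM against 0 µM (3.19-fold; limma, adjusted p = 0.00131). Between 10 and 5 µM the difference was 0.04 on the log2 scale, with a 95% confidence interval of -0.42 to 0.49 (limma, adjusted p = 0.927), which spans changes in both directions. CEACAM7 was dimmer than CEACAM5, and its vehicle signals lay close above the medians of the same arrays, which were 5.20, 5.07 and 5.17.

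CEACAM6 was read by 2 probe sets. The brighter, 211657_at, gave 11.32, 11.56 and 11.47 at 0 µM, 12.23, 12.16 and 12.26 at 5 µM and 11.97, 12.17 and 11.80 at 10 µM. The other, 203757_s_at, gave 10.55, 10.82 and 10.77 at 0 µM, 11.60, 11.65 and 11.79 at 5 µM and 11.52, 11.31 and 11.09 at 10 µM. On both, every treated array exceeded every vehicle array. At 5 µM the log2 differences from 0 µM were 0.77 ± 0.13 (limma, adjusted p = 0.00349) for 211657_at and 0.97 ± 0.14 (limma, adjusted p = 0.00188) for 203757_s_at. At 10 µM they were 0.53 ± 0.13 (limma, adjusted p = 0.0179) and 0.60 ± 0.14 (limma, adjusted p = 0.017), again under 2-fold. At 10 µM against 5 µM the differences of -0.24 and -0.38 did not pass (limma, adjusted p = 0.261 and 0.126). With equal array medians the difference at 5 µM was 0.50 for 211657_at, which then did not pass (limma, adjusted p = 0.0647), and 0.71 for 203757_s_at (adjusted p = 0.0154). At 10 µM neither passed with equal medians (0.25 and 0.32; limma, adjusted p = 0.308 and 0.185) or without 0 µM replicate 1 (adjusted p = 0.0656 and 0.0615).

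CEACAM1 was read by 5 probe sets of very different brightness. The brightest, 209498_at, gave 11.29, 11.18 and 11.38 at 0 µM, 10.65, 10.74 and 10.63 at 5 µM and 11.04, 11.14 and 11.15 at 10 µM. The 5 µM arrays lay below all others, and the 10 and 0 µM arrays did not overlap (at most 11.15 at 10 µM, against at least 11.18 at 0 µM). It was lower at 5 µM than at 0 µM by -0.61 ± 0.10 on the log2 scale (limma, adjusted p = 0.00406) and higher at 10 µM than at 5 µM by 0.44 ± 0.10 (1.35-fold; limma, adjusted p = 0.0382). Between 10 and 0 µM the difference was -0.17 ± 0.10 and did not pass (limma, adjusted p = 0.238), and it was -0.06 after quantile normalization (adjusted p = 0.683) and -0.45 with equal array medians, where it passed (adjusted p = 0.0365). The difference between 10 and 5 µM had an adjusted p of 0.0982 with equal medians and of 0.0514 to 0.138 when any 0 or 5 µM array or 10 µM replicate 3 was left out (limma).

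The 4 dimmer CEACAM1 probe sets did not pass in any comparison with the values as deposited. At 5 µM, 211889_x_at gave 7.28, 7.08 and 7.16, against 7.36, 7.56 and 7.78 at 0 µM, a log2 difference of -0.39 ± 0.15 with no overlap (limma, adjusted p = 0.0914) and a 95% confidence interval of 0.604-fold to 0.965-fold. It passed after quantile normalization (-0.55; limma, adjusted p = 0.0187), with equal array medians (-0.66; adjusted p = 0.0189) and with array weights (-0.38; adjusted p = 0.0375). For 206576_s_at the difference was -0.21 ± 0.20, for 211883_x_at -0.06 ± 0.25 and for 210610_at -0.04 ± 0.36 (limma, adjusted p = 0.465, 0.891 and 0.945). The interval for 210610_at ran from 0.556-fold to 1.70-fold and holds the change of 209498_at. At 10 µM all 5 had negative differences from 0 µM, from -0.41 (206576_s_at and 211883_x_at) to -0.08 (210610_at), with adjusted p of 0.142 to 0.878 by limma. Probe sets ending in _s_at or _x_at can bind transcripts of several forms or genes, and CEACAM genes share long stretches of sequence, so part of such a signal may come from a relative.

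**Figure D3:**
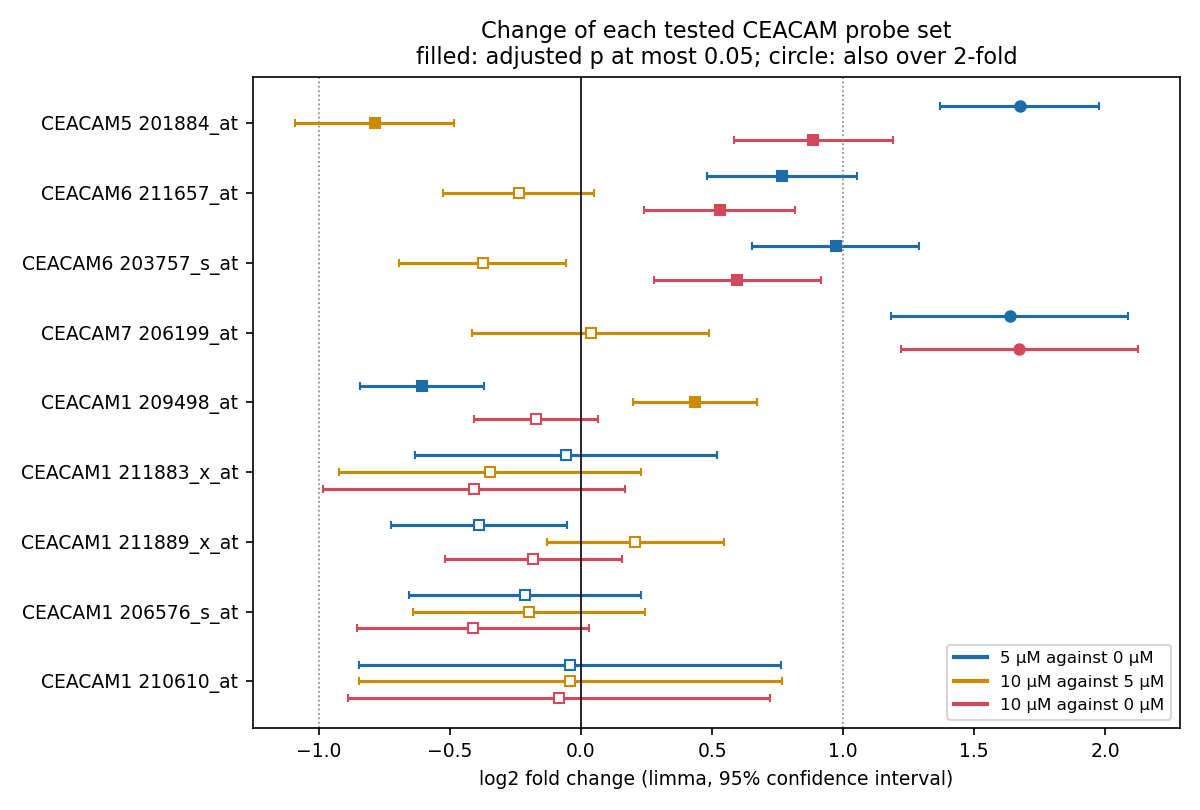
Log2 fold change (horizontal axis) with its 95% confidence interval for the 9 tested CEACAM probe sets (rows) in each comparison (colours); filled symbols have an adjusted p of at most 0.05, circles are also over 2-fold, and dotted lines mark 2-fold. CEACAM7 is at 1.64 for 5 µM and 1.67 for 10 µM against 0 µM, while CEACAM5 is at 1.67 for 5 µM and 0.89 for 10 µM.

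Counted together, 2 of 9 CEACAM probe sets were called higher at 5 µM against 0 µM and 0 lower, where 6.38% of all tested probe sets were called higher and 1.18% lower. Without the fold threshold, 4 were higher and 1 lower by limma, against 14.5% and 9.04% of all. At 10 µM against 0 µM, 1 was called higher and 0 lower (5.46% and 1.55% of all), and 4 higher and 0 lower without the fold threshold (16.3% and 10.4%). At 10 µM against 5 µM, limma called 0 higher and 0 lower (0.354% and 1.57% of all), and without the fold threshold 1 was higher and 1 lower (3.25% and 5.12%). At an unadjusted p under 0.05, limma gave 4 higher and 2 lower at 5 µM against 0 µM (22.1% and 15.1% of all), 4 and 0 at 10 µM against 0 µM (25% and 16.7%) and 1 and 2 at 10 µM against 5 µM (13.1% and 14.3%). The methods' t-test called 2, 1 and 0 in the same order of comparisons, and 5.89%, 2.06% and 0.291% of all. All 9 probe sets were at or above the floor on all 3 vehicle arrays, so none was tested only because it was high after treatment. The groups did not overlap for 6 of 9 probe sets at 5 µM against 0 µM, 5 at 10 µM against 0 µM and 3 at 10 µM against 5 µM, where 49.3%, 41.2% and 30.7% of all tested probe sets did not. The comparisons share arrays, so their counts are not independent. The 9 probe sets stand for 4 genes and are not independent either.

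An exact permutation test of the 3 doses was also run for each probe set alone, with no model across genes (two-sided, over 1680 arrangements of the 9 arrays, smallest possible p = 0.00357). CEACAM5, CEACAM1 209498_at and CEACAM6 203757_s_at reached that smallest value. CEACAM6 211657_at had p = 0.00714 and CEACAM7 p = 0.0321 in the exact test. The 4 dimmer CEACAM1 probe sets had exact p between 0.0714 and 0.993. These p were not adjusted. The test was run for the members only, so the share of all tested probe sets that reach such values is not known.

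With this actin gap added to the fit as a covariate, which rises with dose and so widens every error, fewer changes passed. CEACAM5 was then still called at 5 µM against 0 µM (1.63; limma, adjusted p = 0.0282), and CEACAM7 had 1.73 with adjusted p = 0.076. CEACAM6 did not pass there on 203757_s_at (1.02; limma, adjusted p = 0.127) or 211657_at (0.81; adjusted p = 0.178). Nor did CEACAM1 209498_at (-0.73; limma, adjusted p = 0.133). No CEACAM probe set passed at 10 µM against 0 µM in that fit, where CEACAM7 had 1.83 (limma, adjusted p = 0.604) and limma called 0 of all 27144 probe sets. With 10 µM replicates 2 and 3 left out, which leaves 1 array at 10 µM that is assumed to vary like the arrays of the other groups, CEACAM7 was 1.69 above 0 µM (limma, adjusted p = 0.0156) and CEACAM5 1.00 (adjusted p = 0.0134). The difference of CEACAM5 between 10 and 5 µM was then -0.67 (limma, adjusted p = 0.0708) and that of CEACAM1 209498_at 0.37 (adjusted p = 0.145). The part of RNA quality in these results was not tested beyond these fits.

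The 4 genes did not follow the doses alike. For each array the log2 signal of 1 member was subtracted from that of another, using the brightest probe set of each gene, and the 3 doses were compared with the exact permutation test over 6 pairs. Such a difference is taken within an array, so a scaling of the whole array cancels. All 6 pairs passed after Benjamini-Hochberg adjustment over the 6 pairs. The pairs reuse the same 4 probe sets and are not independent. Pairs of other genes were not tested, so the share of them that would pass is not known. Changes with dose were common, since the 5 and 0 µM groups did not overlap for 49.3% of all tested probe sets.

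CEACAM5 minus CEACAM1, set to a mean of 0 at 0 µM, was 2.24, 2.18 and 2.43 at 5 µM and 1.24, 1.12 and 0.82 at 10 µM. CEACAM7 minus CEACAM1 was on average 2.24 at 5 µM and 1.84 at 10 µM, and CEACAM6 minus CEACAM1 was 1.37 and 0.70 (exact permutation test, adjusted p = 0.00429 for each of these 3 pairs). CEACAM5, CEACAM6 and CEACAM7 were thus higher relative to CEACAM1 209498_at at both doses, with no overlap between treated and vehicle arrays. That reference was itself lower at 5 µM than at 0 µM (-0.61), and the dimmer CEACAM1 probe sets did not pass with the values as deposited. Other genes were not set against it, so the share of them that would also be higher is not known. CEACAM5 also moved up relative to CEACAM6, by 0.91 at 5 µM and 0.36 at 10 µM, and CEACAM7 relative to CEACAM6, by 0.87 and 1.143 (exact permutation test, adjusted p = 0.00429 for both). CEACAM7 and CEACAM5 differed by 10 µM only. Their difference from the 0 µM mean was 0.06, 0.06 and -0.23 at 5 µM, overlapping the vehicle arrays, and 0.69, 0.84 and 0.83 at 10 µM, above them all (exact permutation test, adjusted p = 0.0357).

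**Figure D4:**
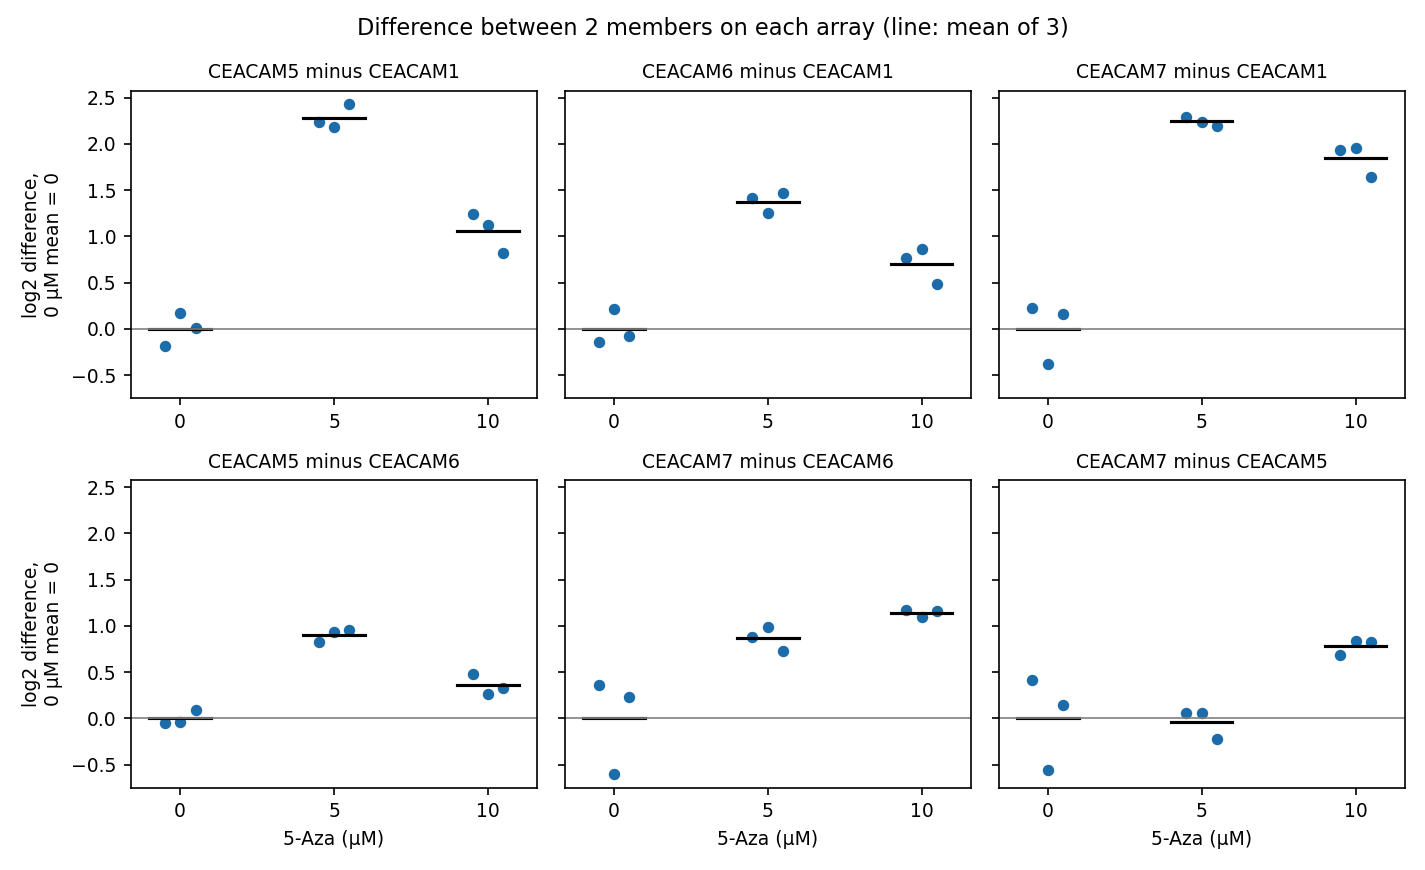
Log2 difference between 2 CEACAM genes on each array (vertical axis, shifted so that the 0 µM mean is 0) at 0, 5 and 10 µM 5-Aza (horizontal axis), 1 panel a pair; points are arrays and lines are means of 3. CEACAM7 minus CEACAM5 averages -0.04 at 5 µM and 0.79 at 10 µM, while the 3 differences from CEACAM1 are highest at 5 µM.

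The rest of the family was mostly below the floor. Of 19 other CEACAM and pregnancy-specific glycoprotein (PSG) genes, 14 were on the array and 2 were tested. CEACAM3, a granulocyte receptor for bacteria, had a log2 difference of 0.40 ± 0.58 at 5 µM and -0.34 ± 0.58 at 10 µM against 0 µM (limma, adjusted p = 0.652 and 0.681). CEACAM19 had -0.30 ± 0.35 and 0.15 ± 0.35 (limma, adjusted p = 0.567 and 0.77). CEACAM8, a granulocyte marker, was under the floor on all 9 arrays.

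None of the genes whose products anchor, bind or splice the CEACAMs was called at any dose, but several changed by less than 2-fold. In the lists, each gene was read by its brightest probe set, and 8.44% of 11758 genes so read were called higher and 1.31% lower at 5 µM against 0 µM, with a median change of 0.04. Of 15 tested partners, signalling and splicing factors of 25 listed, 0 were called (limma), and the median change was -0.19 at 5 µM and 0.06 at 10 µM. At an unadjusted p under 0.05, 4 were higher and 7 lower at 5 µM against 0 µM, where 25.1% of all genes were higher and 17.4% lower. ITGAV, the integrin αV chain, had the smallest p and was 0.42 ± 0.10 higher at 5 µM (limma, adjusted p = 0.0183). Of 29 tested GPI anchor genes of 30 listed, 0 were called (limma), with medians of 0.06 and 0.27, where all genes had 0.04 and 0.05. At an unadjusted p under 0.05, 7 were higher and 2 lower at 5 µM (25.1% and 17.4% of all genes). At 10 µM against 0 µM 13 were higher and 2 lower, where 25% of all tested probe sets were higher and 16.7% lower. PIGM, the enzyme that adds the anchor's first mannose, was 0.96 ± 0.14 higher at 5 µM (limma, adjusted p = 0.00168) and 0.48 ± 0.14 higher at 10 µM (adjusted p = 0.0328).

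Of 17 tested transcription factors of 21 listed, which include those described at CEACAM promoters, 0 were called at 5 µM (limma; 3 higher and 5 lower at an unadjusted p under 0.05, against 25.1% and 17.4% of all genes) and 1 was called lower at 10 µM against 0 µM, where 6.02% of all genes were called higher and 1.49% lower. This was ELF3, an epithelial ETS factor, with -0.94 ± 0.15 at 5 µM (limma, adjusted p = 0.00334) and -1.04 ± 0.15 at 10 µM (adjusted p = 0.00302). The E-box factors USF1 and USF2 had 0.62 ± 0.19 and 0.24 ± 0.22 at 5 µM (limma, adjusted p = 0.0479 and 0.457), and CDX2, a factor that defines intestinal epithelium, was under the floor on all 9 arrays.

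Products of surface colonocytes, the cells in which CEACAM7 is normally found, moved in both directions. Of 15 tested of 24 listed, 7 were called higher and 0 lower at 5 µM against 0 µM, with a median change of 0.84. Among all genes 8.44% were called higher and 1.31% lower, with a median of 0.04. The floor tilts this count and median upward. GUCA2A, GUCA2B, BEST4 and LYPD8, which are 4 of the 7, were tested only because treated arrays reached the floor, and the other 3 were among 11 genes at the floor on all vehicle arrays. Of all genes, 879 of 11758 were tested only through treated groups, and they gave 503 of the 992 calls of higher. The other 489 calls came from the 10879 genes at the floor on all vehicle arrays. GUCA2B and GUCA2A, which encode the peptides uroguanylin and guanylin, were 3.86 ± 0.19 and 3.59 ± 0.59 higher at 5 µM (limma, adjusted p = 9.14e-06 and 0.00326). LYPD8, a GPI-anchored protein of the colon surface that binds flagella, was 3.82 ± 0.62 higher (limma, adjusted p = 0.00313). All 3 had mean 0 µM signals under the floor (2.82, 3.73 and 2.75 for GUCA2B, GUCA2A and LYPD8), so their folds start from signals of no certain level. At 10 µM against 0 µM 5 were called higher and 0 lower, with a median of 0.51 (6.02% and 1.49% of all genes, median 0.05). At 10 µM against 5 µM 0 were called higher and 3 lower, with a median of -0.69. There 0.23% of all genes were called higher and 1.92% lower, and the median was -0.01. LYPD8 was back at 3.38 ± 1.44 at 10 µM, against 6.57 ± 0.12 at 5 µM (log2 difference -3.19 ± 0.62; limma, adjusted p = 0.0202). Without the fold threshold 9 passed as higher and 3 as lower at 5 µM (14.5% and 9.04% of all tested probe sets). The 3 were TSPAN1 (-0.80; limma, adjusted p = 0.00321), LGALS4 (-0.58; adjusted p = 0.00638) and VIL1 (-0.38; adjusted p = 0.0355), a tetraspanin, a galectin and the microvillus protein villin. CA4, SLC26A3, AQP8, MS4A12, CLCA4 and FABP1 of the same list were under the floor on all 9 arrays.

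**Figure D5:**
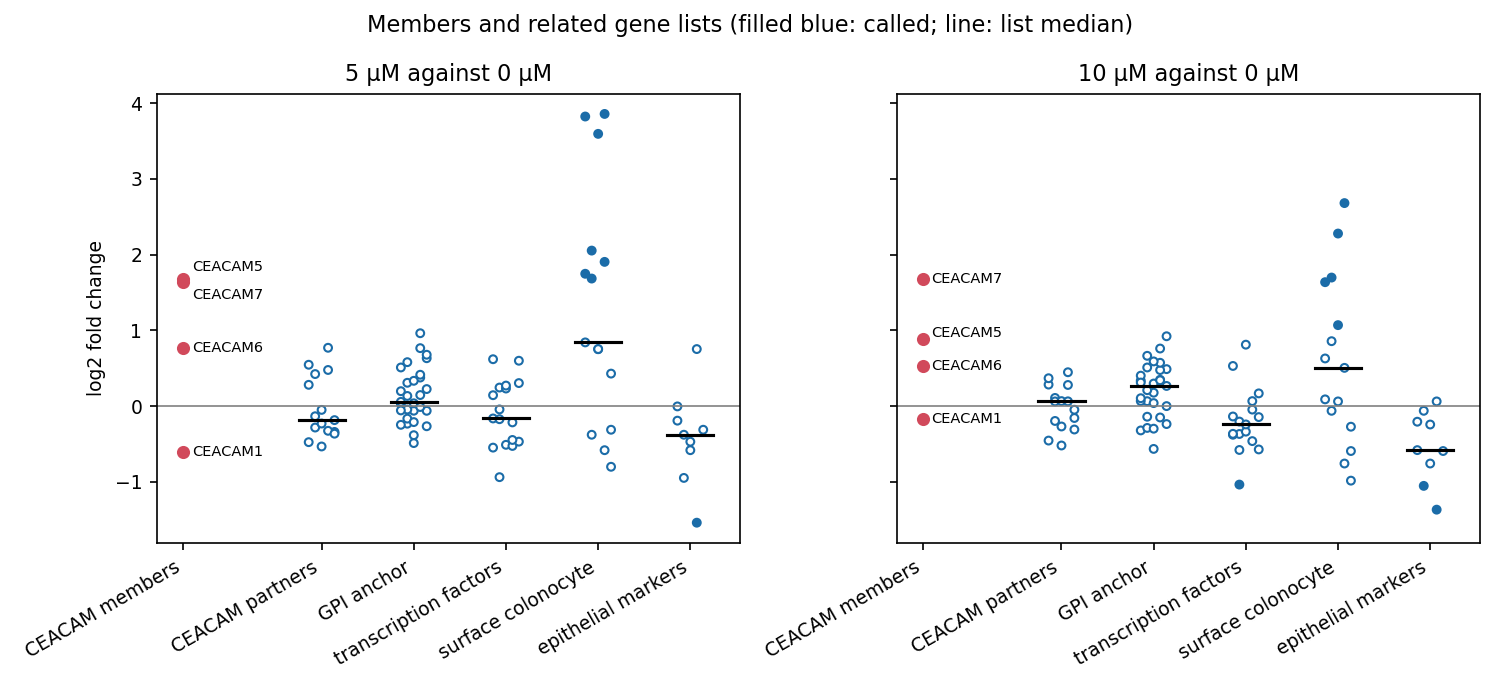
Log2 fold change (vertical axis) at 5 µM against 0 µM (left) and 10 µM against 0 µM (right) of the 4 CEACAM genes (red, brightest probe set) and of the tested genes of 5 lists; filled blue points were called and lines are list medians. The surface colonocyte list has a median of 0.84 at 5 µM and 0.51 at 10 µM, and the other 4 lists have medians between -0.58 and 0.27.

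Among markers of the line itself, 9 of 10 colon epithelial markers were tested. At 5 µM 0 were called higher and 1 lower (8.44% and 1.31% of all genes), with a median change of -0.38. At 10 µM against 0 µM 0 were called higher and 2 lower (6.02% and 1.49%), with a median of -0.58. Without the fold threshold 1 was higher and 5 lower at 5 µM (14.5% and 9.04% of all tested probe sets). Some of these markers, among them VIL1 and LGALS4, are also in the surface colonocyte list. KRT19, a keratin of simple epithelia, was -1.54 ± 0.11 at 5 µM and -1.37 ± 0.11 at 10 µM (limma, adjusted p = 5.35e-05 and 2.57e-04). The summed linear signal of the list was 96352 to 99804 at 0 µM, 65685 to 73722 at 5 µM and 60891 to 69091 at 10 µM. The array held 8 blood cell markers, of which 4 were tested, and ITGAM was called higher at 5 µM (6.58 ± 0.16, against 3.65 ± 0.61 at 0 µM). ITGAM was under the floor on every vehicle array and was tested only because the 5 µM arrays reached it, while PTPRC, MPO and FCGR3B were under the floor on all 9 arrays. The summed blood signal was 12911 to 13756 at 0 µM, 9012 to 10234 at 5 µM and 10773 to 11852 at 10 µM, most of it from LYZ, whose mean log2 signal was 13.20 at 5 µM, against 13.68 at 0 µM. Of 9 fibroblast and endothelial markers 3 were tested and 2 were called higher at 5 µM, COL1A1 (2.68 ± 0.26) and LUM (1.57 ± 0.16), while COL3A1, PDGFRB, VWF and CDH5 were under the floor on all 9 arrays (limma, adjusted p = 2.83e-04 and 3.76e-04 for COL1A1 and LUM). The summed stromal signal was 339 to 456 at 0 µM, 1132 to 1244 at 5 µM and 672 to 830 at 10 µM. Whether these shifts have a part in the CEACAM changes was not tested.

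The genes beside the members were also read. The 5 genes on either side of each member were taken in RefSeq order among chromosome 19 genes with a probe set. Leaving out the members, these were 20 genes, and 7 of them were tested. At 5 µM against 0 µM 1 was called higher and 0 lower, with a median change of 0.39, where 8.44% of all genes were called higher and 1.31% lower. The 1 was CXCL17, a mucosal chemokine close to CEACAM1, at 3.99 ± 0.43 (limma, adjusted p = 4.64e-04), and it was 2.57 ± 0.43 above 0 µM at 10 µM (adjusted p = 0.00468). CXCL17 was tested only because treated arrays reached the floor. LIPE, the hormone-sensitive lipase, also beside CEACAM1, was -0.80 ± 0.19 at 5 µM (limma, adjusted p = 0.0169). The paper's qRT-PCR on the same RNA samples gave LIPE an increase at 5 µM that was not significant. The folds that the paper lists for LIPE from its microarray and RNA-Seq data were decreases. The neighbours of CEACAM5, CEACAM6 and CEACAM7 that were tested, CEACAM3, RPS19 and CD79A, had 0.40, -0.28 and 0.29 at 5 µM, and none passed.

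The genes with the pattern most like each member were found among 11757 tested genes by the root mean square difference over the 9 arrays, each gene centred on its 0 µM mean. For CEACAM5 they were HCFC1R1 (0.10), FSTL3 (0.14) and NTAN1 (0.14), all high at 5 µM and lower at 10 µM. For CEACAM7 they were CXCR4 (0.14), IKBIP (0.20) and SNX21 (0.21). For CEACAM6 they were CD47 (0.07), TMEM50B (0.08) and NPC2 (0.10), and for CEACAM1 EFCAB7 (0.06), R3HDM1 (0.07) and HEATR3 (0.07). CEACAM7 stood at 0.52 and CEACAM6 at 0.57 from CEACAM5, at ranks 609 and 776. Seen from CEACAM7, CEACAM5 had rank 281 and CEACAM6 rank 1248. Seen from CEACAM6, CEACAM5 had rank 5131 and CEACAM7 rank 9530. CEACAM1 had rank 10317 from CEACAM5, 9829 from CEACAM6 and 10018 from CEACAM7. A small distance says that 2 genes had like values on these arrays and nothing more.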

How the data were processed

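Total RNA of 9 HT-29 cultures was hybridised to 9 Affymetrix hgu133plus2.0 arrays, 3 for each concentration of 5-Aza. The authors deposited log2 signals for 54675 probe sets. The submitters' processing notes name RMA and affy 1.14.2, but the values have the form of MAS 5.0 signals: 100% of the signals at or under 20 are multiples of 0.1 in linear units, every array has a 2% trimmed mean of 250.05 to 250.06, and arrays differ by up to 1.59 (log2) at 1 rank. They were used as deposited, with 1 scaling factor an array. Probe sets with a missing value (6) and controls (62) were left out. The platform annotation gave 1 gene to 41091 probe sets, several to 1801 and none to 11721.

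limma 3.58.1 (lmFit and eBayes, R 4.3.3) was fitted to the 27144 probe sets at or above the floor, with 1 mean for each dose over all 9 arrays, and checked on simulated data first. p-values were adjusted by Benjamini-Hochberg over all of them. They set each difference against the spread between replicate cultures of 1 line, pooled over the 3 doses and drawn by eBayes towards a value shared across probe sets. The number of arrays limits the precision. Promoter windows came from RefSeq (GRCh38.p14), in which all 4 symbols matched, and were aligned with Biopython 1.88 (match 1, mismatch -1, gap opening -2, gap extension -0.5). RefSeq gene order, among genes with a probe set, gave the neighbours. Figures were drawn with matplotlib 3.10.9.

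The members and gene lists were chosen with earlier results of these data known, and no list was tested as a set. Named genes were every member, every other family gene above the floor, the 3 called genes of each list with the largest change at 5 µM (the smallest p where none was called), called neighbours and the 3 genes most like each member. A few others (USF1, USF2, LIPE, BEST4, TSPAN1, LGALS4, VIL1, LYZ, the tested neighbours and genes under the floor) were named after their values were seen. Alternatives changed the floor, the scaling, the summary over probe sets, the spread model and the arrays, and added a covariate or a replicate block. RNA-Seq of these cultures was not analysed here.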

Additional observations from a re-analysis of the deposited data

How the results depend on the processing

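Counts of CEACAM probe sets called depended on the fold threshold, since without it 5 of 9 passed at 5 µM against 0 µM, 2 at 10 µM against 5 µM and 4 at 10 µM against 0 µM, where 2, 0 and 1 were called with it. Averaging all probe sets of each gene first, 0 were called at 5 µM and 0 at 10 µM against 0 µM (limma). CEACAM7 was not tested in that fit, since its mean with its dim probe sets did not pass the floor. CEACAM5 then had 0.68 at 5 µM with adjusted p = 0.103, since its dim probe set entered the mean. With the actin covariate 1 was called at 5 µM and 0 at 10 µM against 0 µM, and with 10 µM replicates 2 and 3 left out 2 were called at 10 µM. CEACAM6 203757_s_at was called at 5 µM after quantile normalization (1.05) and when 0 µM replicate 2 (1.02) or 5 µM replicate 1 (1.01) was left out. The exact test of CEACAM1 211889_x_at passed after quantile normalization (p = 0.0107). CEACAM5 at 5 µM against 0 µM was 1.58 to 1.73 and CEACAM7 1.39 to 1.76 with 1 array left out, and both were called each time.

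Differences that did not pass changed sign in some fits. For CEACAM1 210610_at the difference at 5 µM was 0.012 with array weights and -0.44 to 0.29 with 1 array left out. It was -0.23 to 0.16 at 10 µM against 5 µM and -0.48 to 0.25 at 10 µM against 0 µM with 1 array left out, and 0.33 and 0.29 without 10 µM replicates 2 and 3. CEACAM1 211883_x_at was -0.18 to 0.10 at 5 µM with 1 array left out, 0.71, 0.25 and 0.96 with the actin covariate at 5 against 0, 10 against 5 and 10 against 0 µM, and 0.15 and 0.091 at 10 µM against 5 and 0 µM without 10 µM replicates 2 and 3. Without those arrays CEACAM1 206576_s_at was 0.14 at 10 µM against 5 µM and 211889_x_at 0.037 at 10 µM against 0 µM. CEACAM7 at 10 µM against 5 µM was -0.10 with array weights and -0.035 to 0.12 with 1 array left out. The cause was not tested. By the combined threshold (adjusted p and over 2-fold), 24 of the members' alternative values changed sign and 573 kept their sign and side. Of the others, 3 were no longer called and 12 were newly called. Most of these 12 came from the fit without the fold threshold and were under 2-fold, since there an adjusted p of at most 0.05 was enough. By adjusted p alone, 11 member differences passed with the values as deposited, and 44 of their 247 alternative values did not, 12 of them with 1 array left out and 10 with the actin covariate. Of 338 alternative values of the other 16 differences, 11 passed.

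Over all probe sets, 2051, 522 and 1903 were called at 5 against 0, 10 against 5 and 10 against 0 µM. These counts were 6384, 2272 and 7231 without the fold threshold, 1166, 276 and 892 with 1 probe set a gene, 892, 221 and 648 with such averages, and 682, 14 and 0 with the actin covariate. At 10 against 5 and 10 against 0 µM they were 79 and 560 by the methods' t-test and 1556 and 3287 with array weights, and at 10 against 5 µM 113 with no floor. With 1 array left out the count at 10 against 5 µM was 180 to 783, and it was 344, 277 and 180 without 5 µM replicates 1, 2 and 3 and 265 without 10 µM replicate 3. The deviations showed no pairing of samples by replicate number. Those of same-numbered arrays correlated at -0.125 to 0.184, not every pair being over 0.1, and those of differently numbered arrays at -0.279 to 0.232. With 3 arrays in each group this check cannot exclude pairing. With the replicate block 2041, 452 and 1898 were called, and the CEACAM counts were 2, 0 and 1.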
